A study of Homo sapiens with 2 samples.

Results

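The 11q13 band is a stretch of the long arm of chromosome 11 known for its many closely packed genes. Its KMT2D peaks were examined in 1 ChIP-seq library from OCI-LY7 cells, an established line of GCB-DLBCL (diffuse large B-cell lymphoma of the germinal centre type) whose genotype the labels give as wt. The members were all listed peaks of chromosome 11 whose highest point lay from 63 to 69 Mb on hg19. There were 318 of them among 1297 peaks on chromosome 11 and 24824 in the whole list. The band and its edges mean this stretch here, which was cut at round positions and not at the limits of the cytogenetic band. The band had been chosen for its number of peaks, so its density is given as a description with no test. The study comprised that KMT2D library, made with an antibody raised in house to the N-terminal part of KMT2D, and 1 input library made without antibody from the same line, both fixed with 1% formaldehyde for 10 min. No separate values for the input were analysed here. With 1 ChIP library there was no replicate spread and no p-value, and the sequencing depth is unknown. The 95% intervals given below reflect only the number of peaks counted, and peaks of 1 library are not replicates.

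KMT2D, also called MLL4, is a methyltransferase that monomethylates histone H3 at lysine 4, above all at enhancers, and is also found at promoters of active genes. Loss of its function through mutation is frequent in B-cell lymphoma, where enhancers of B-cell genes lose this mark. ChIP-seq peaks mark stretches of DNA recovered with the protein, which can be bound directly or through partner proteins.

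The band was dense in genes. In the order of genes of a RefSeq table on GRCh38.p14, the run from SLC22A10 to TPCN2, known to lie near the ends of the band, held 184 of the 1301 protein-coding genes of chromosome 11 (14.1%), although the band made up 4.47% of the length between the first and last peak of the chromosome. None of the 171 olfactory receptor genes of the chromosome was in this run. The gene lists that follow had been drawn up from genes known in this region, so they describe what it holds. The run contained all 21 immune and signalling genes looked up (under 22 symbols, since GRK2 and ADRBK1 name the same gene), among them RELA, an NF-kB subunit, RASGRP2, an exchange factor for the small GTPase Rap1, and PTPRCAP, which associates with the phosphatase CD45. It also contained all 25 listed genes for chromatin, transcription and RNA handling (under 26 symbols, since KMT5B and SUV420H1 name the same gene). These included MEN1, whose product menin is a subunit of complexes formed by the related methyltransferases KMT2A and KMT2B, KDM2A, a histone H3 lysine 36 demethylase, KMT5B, a histone H4 lysine 20 methyltransferase, and KAT5, a histone acetyltransferase. The long noncoding RNA genes NEAT1, which builds paraspeckles, and MALAT1, a nuclear speckle RNA, lay there as well, as did all 14 listed genes of metabolism and mitochondria, such as GSTP1, a glutathione transferase. Of the 23 listed transport and neuronal genes 19 were in the run, and SLC22A6, SLC22A8, SLC22A24 and SLC22A25 lay outside it. The table is on another build than the peaks, so no peak was assigned to any of these genes.

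The band, chosen for its number of peaks, held a larger share of KMT2D peaks than of protein-coding genes. It held 24.5% of the peaks of chromosome 11 (exact binomial 95% interval 22.2 to 26.95%), beside 14.1% of the protein-coding genes. That came to 1.73 peaks per protein-coding gene in the band and 0.876 on the rest of chromosome 11. Without olfactory receptor genes the run held 16.3% of the protein-coding genes, and the rest had 1.03 peaks per gene. The run held 7.14% of the long noncoding RNA genes and 17.6% of the microRNA genes of the chromosome. Both the peak share and the peaks per gene follow in part from the choice of the band by its peak number. The band held 53 peaks per Mb (exact Poisson 95% interval 47.3 to 59.2) and the rest of the chromosome 7.64 (7.17 to 8.13), a ratio of 6.94 (exact conditional 95% interval 6.09 to 7.88). Peaks covered 4.34% of the bases of the band and 0.521% of the rest. The rest of the chromosome contains its centromere and other stretches without peaks: 97 of its 257 windows of 0.5 Mb (37.7%) held no peak, against 0 of the 12 windows of the band. Counted over the windows outside the band that did hold a peak, the ratio of densities was 4.33.

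Dense stretches of this length also occurred elsewhere in the list. The fullest 6 Mb stretches outside the band that did not overlap each other lay on chromosome 17 from 72.5 to 78.5 Mb with 303 peaks, on chromosome 19 from 1 to 7 Mb with 291 and on chromosome 1 from 23.5 to 29.5 Mb with 259. On chromosome 11 the fullest placement of a 6 Mb stretch, in steps of 0.5 Mb, was not the band itself but the stretch from 61.5 to 67.5 Mb, with 331 peaks. The lowest listed height was 19 in the band and 20 in the chromosome 1 stretch. It was 24 in the chromosome 17 stretch and 28 in that of chromosome 19. The count of the band thus includes lower peaks than those of the stretches on chromosomes 17 and 19. Counted only from the lowest height listed in each of those stretches, the band held fewer peaks than the stretch.

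Within the band the peaks were far from evenly spread. Its 12 windows of 0.5 Mb are numbered here from the centromeric side. The fullest was window 9, from 67.0 to 67.5 Mb, with 68 peaks, ahead of the adjoining windows 4 and 5, which divide the stretch from 64.5 to 65.5 Mb and held 57 and 54. These 3 windows held 179 peaks, or 56.3% (50.6 to 61.8%) of the band. Each exceeded the fullest window of the rest of chromosome 11, which lay from 118.5 to 119.0 Mb and held 39 peaks. This follows in part from the choice of the band by its peak number. Next in number came window 7 (66.0 to 66.5 Mb) with 33 peaks, window 3 with 24 and window 6 with 22. The sparsest windows were the outermost ones, with 3 peaks in window 1 and 7 in window 12. Windows 2, 8, 11 and 10 held 14, 13, 12 and 11 peaks. The fullest window thus directly followed one of 13 peaks and preceded one of 11. These counts depend on where the windows begin: with windows shifted by 0.25 Mb the fullest of the band held 52 peaks. Bases covered by peaks followed the number of peaks over the 12 windows, from 0.467% in window 1 to 10.9% in window 9, with a Spearman correlation of 0.97. Covered bases are the summed widths of the same peaks that were counted, so a high correlation was largely built in. All windows come from the same library, and the correlation is a description.

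**Figure D1:**
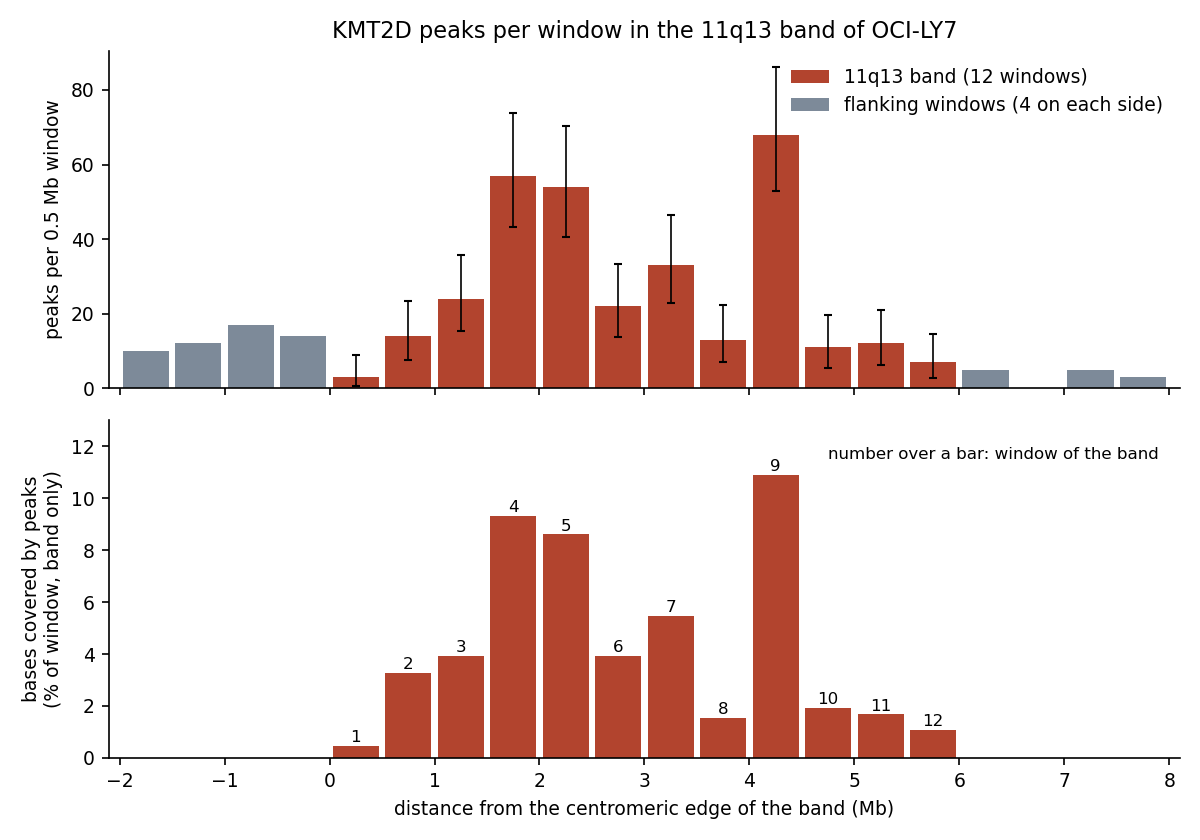
Upper panel, number of KMT2D peaks per 0.5 Mb window against the distance from the centromeric edge of the band in Mb, for the 12 windows of the band (red, with exact Poisson 95% intervals) and 4 flanking windows on each side (grey). Lower panel, percent of bases covered by peaks in each window of the band, with the number of the window over its bar. The 3 fullest windows hold 68, 57 and 54 peaks and the outermost windows hold 3 and 7.

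The edges of the band did not mark an equal change in peak number. On the centromeric side the 4 neighbouring windows, from 61 Mb onward, held 10, 12, 17 and 14 peaks, all more than the first window of the band. The last peak before the band, 159 bp wide and 21 high in the authors' units, lay at 62747680 to 62747839, and the first inside it, 452 bp wide and 37 high, at 63360350 to 63360802. The run of organic anion transporter genes of the SLC22A family is known to lie about this stretch. On the telomeric side the 4 neighbouring windows held 5, 0, 5 and 3 peaks. The last peak of the band, at 68823314 to 68824233, was 919 bp wide and 59 high, and the first beyond it, at 69061522 to 69061802, was 280 bp wide and 29 high. No peak straddled an edge.

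At the edges of the band 360.35 kb held no listed peak before its first peak and 175.8 kb after its last. Between peaks of the band the longest gap ran from 68228923 to 68518919, over 289.996 kb. The next longest gaps between peaks ran from 64216611 to 64422830 (206 kb), from 67573356 to 67723191 (149.8 kb), from 68671870 to 68815949 (144 kb) and from 66888715 to 67007212 (118 kb). The last of these borders window 9, the fullest of the band. These 5 gaps between peaks together made up 15.1% of the band. The depth of the library is unknown, and a stretch without a listed peak is not shown to be unbound.

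The peaks of the band stood close together. The median distance from the highest point of a peak to that of its nearest neighbour was 2.21 kb in the band (95% interval 1.89 to 2.92 kb) and 6.70 kb on the rest of chromosome 11 (5.24 to 8.24 kb). Isolated peaks were rarer: 22 of 318 band peaks (6.92%; 4.39 to 10.3%) had no neighbour within 25 kb, against 272 of 979 (27.8%; 25 to 30.7%) elsewhere on the chromosome. Neighbours within 2 kb were found for 45.3% of band peaks (39.7 to 50.9%) and 35.9% of the others (32.8 to 38.9%). Nearer neighbours and fewer isolated peaks follow in part from the density for which the band was chosen. Some neighbours were very close: joining peaks less than 500 bp apart left 249 peaks in the band and 837 on the rest of the chromosome. The ratio of densities was then 6.35. Distances between peaks after this joining were not analysed.

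Closer packing came with peaks of about the same height. The median height was 41 in the band (37 to 45; interquartile range 28 to 63) and 40 on the rest of the chromosome (38 to 42; interquartile range 28 to 59), and the intervals overlapped. The median score was 24.5 in the band and 24.7 on the rest, also with overlapping intervals (22.99 to 26.7 and 23.99 to 25.6). The lowest listed heights were 19 and 20, and peaks 28 to 32 high had a median significance value of -21.5 in both. At heights of 30 to 39 this median was -23.7 in the band and -24.5 elsewhere. At 25 to 29 it was -19.5 and -19.2, and the intervals overlapped in both classes. These values do not measure the height at which a peak entered the list. Whether that height was the same inside and outside the band was not tested. At the upper end, 21 band peaks (6.60%; 4.13 to 9.92%) reached a height of 100 or more, against 38 of the others (3.88%; 2.76 to 5.29%), and these intervals overlapped too. Median heights on chromosomes 19, 17 and 22 were 51, 46 and 45, but fewer low peaks were listed there, with lowest heights of 26, 23 and 24.

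The windows with the most peaks had median heights near that of the whole band. Medians ran from 30 in window 8 to 56.5 in window 2, and windows 9, 4 and 5 had 36.5, 38 and 43.5. The intervals of these 3 medians, 30 to 51, 28 to 50 and 34 to 52, overlapped each other and that of the band as a whole. Over the 12 windows the Spearman correlation of peak number with median height was -0.34, a description of 1 library in which the window medians rest on 3 to 68 peaks.

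**Figure D2:**
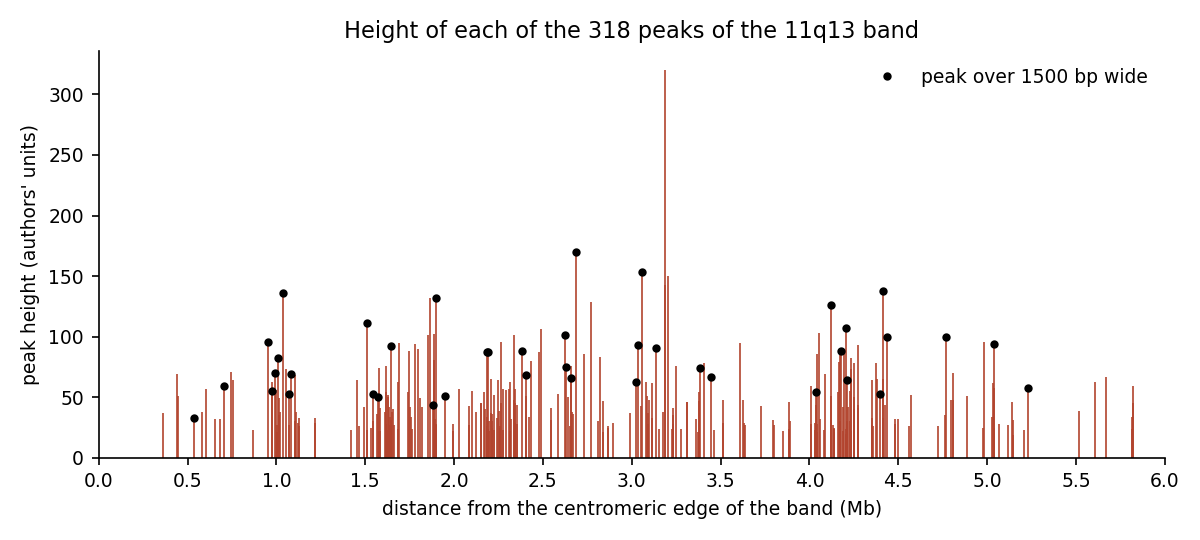
Height of each of the 318 peaks in the authors' units against the distance from the centromeric edge of the band in Mb; each line is 1 peak and black dots mark the 41 peaks over 1500 bp wide. The single peak of height 320 stands apart from the rest, which reach 170 at most, and wide peaks occur in 9 of the 12 windows.

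The band had a larger share of wide peaks than the rest of the chromosome, and the intervals of both shares did not overlap. Peaks over 1500 bp made up 41 of 318 in the band (12.9%; exact binomial 95% interval 9.41 to 17.1%) and 50 of 979 elsewhere on chromosome 11 (5.11%; 3.81 to 6.68%). Over the whole list, band included, the share was 1716 of 24824 (6.91%; 6.60 to 7.24%). This width was picked after the values had been seen. At over 1000 bp the shares were 33.3% (28.2 to 38.8%) and 24.2% (21.6 to 27.0%), and at over 2000 bp they were 3.77% (1.96 to 6.50%) and 1.63% (0.937 to 2.64%), where the intervals overlapped. Median widths were 700 bp in the band (587 to 803 bp) and 603 bp on the rest (563 to 658 bp), with overlapping intervals, whereas the upper quartiles were 1178 and 989 bp. Short peaks of up to 200 bp were about as frequent in both, at 19.8% (15.6 to 24.6%) and 21.3% (18.8 to 24.1%).

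Wide peaks were not a matter of the fullest windows alone. Without the 3 fullest windows the band still had 22 of 139 peaks over 1500 bp (15.8%; 10.2 to 22.98%). Window 2, with 14 peaks, had the highest share, 5 peaks or 35.7%, and its peaks had a median of 1232.5 bp (714 to 1782 bp). No peak of this width was listed in windows 1, 8 and 12. Among lone peaks of the band, those with no other peak within 12500 bp, 11 of 48 were over 1500 bp (22.9%; 12 to 37.3%), against 21 of 376 lone peaks elsewhere on the chromosome (5.59%; 3.49 to 8.41%). For clustered peaks the shares were 11.1% (7.62 to 15.5%) and 4.81% (3.24 to 6.83%). Whole chromosomes had shares of 3.63% (2.76 to 4.68%) for chromosome 19, 6.88% (5.64 to 8.30%) for chromosome 17 and 3.23% (2.06 to 4.80%) for chromosome 22. The dense 6 Mb stretches named above had shares of 9.24% (6.23 to 13.1%) on chromosome 17, 4.12% (2.15 to 7.09%) on chromosome 19 and 8.49% (5.40 to 12.6%) on chromosome 1. The intervals for the stretches on chromosomes 17 and 1 overlapped that of the band, and that for chromosome 19 did not.

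**Figure D3:**
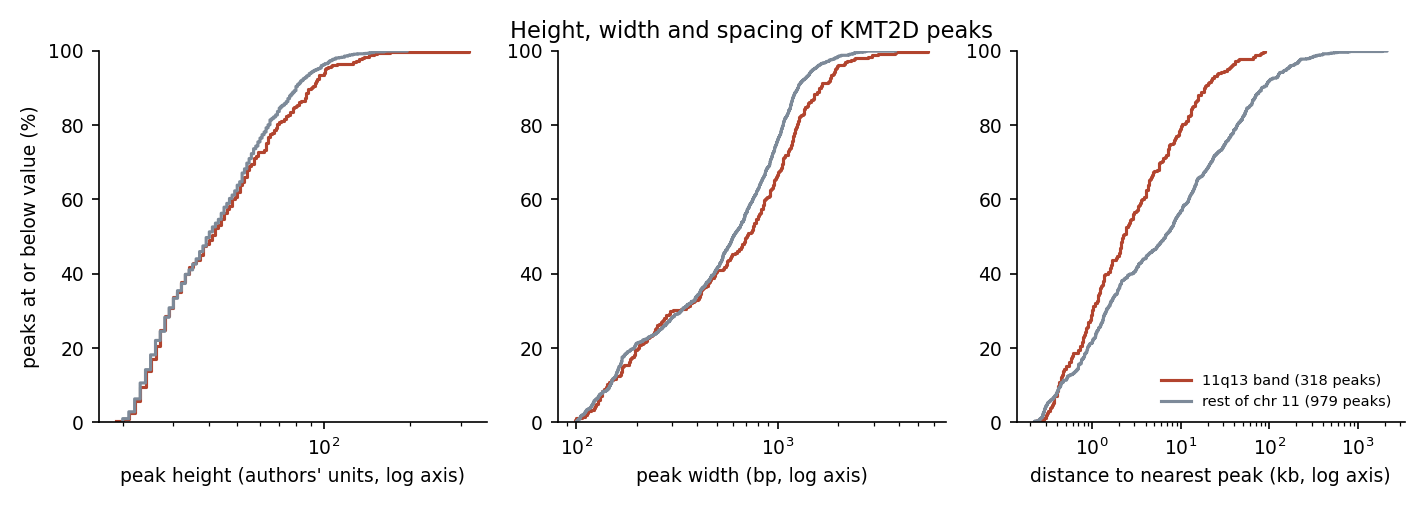
Percent of peaks at or below a given height (authors' units), width (bp) and distance to the nearest peak (kb), each on a log axis, for the 318 band peaks (red) and the 979 other peaks of chromosome 11 (grey). The height curves lie close together, the width curves part above about the median, and band peaks have nearer neighbours.

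Taller peaks were wider, with a Spearman correlation of height and width of 0.87 across band peaks and 0.88 across the others. Among tall peaks too, a larger share was wide in the band. Of peaks 60 or more high, 30 of 87 in the band were over 1500 bp (34.5%; 24.6 to 45.4%), against 37 of 240 elsewhere on the chromosome (15.4%; 11.1 to 20.6%). Heights were not matched within this open class, in which 21 of the 87 band peaks and 38 of the 240 others reached 100 or more. At heights of 100 or more the median width was 1511 bp in the band (interval 1217 to 1935 bp) and 1155.5 bp elsewhere (1052 to 1328 bp). At heights of 80 to 99 the band had a median of 1313 bp (interval 1190 to 1830 bp) and the others 1157 bp (1049 to 1205 bp), and at heights of 60 to 79 the band had 1190 bp (interval 984 to 1348 bp) and the others 1038 bp (984 to 1106 bp). The intervals of these medians overlapped in each class, with 21, 27 and 39 band peaks. At heights of 30 to 39 the medians were 490 bp in the band and 492 bp elsewhere. In the partly overlapping class of 28 to 32 the band had the lower median, 291 bp (214 to 415 bp). The others had 376.5 bp there (309 to 401 bp), and the intervals overlapped.

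**Figure D4:**
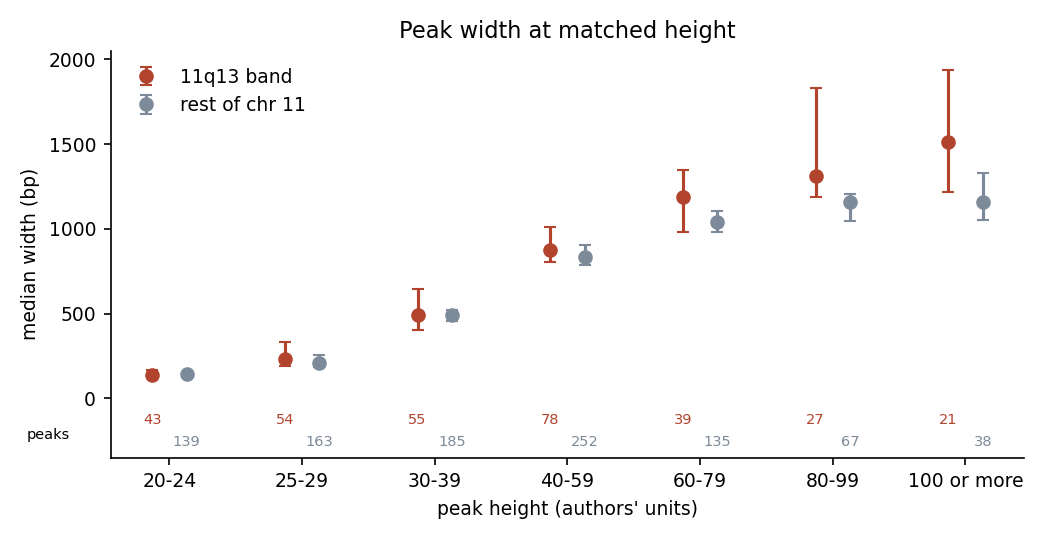
Median width in bp with its order-statistic 95% interval for peaks of the same height class, in the band (red, left) and on the rest of chromosome 11 (grey, right); numbers under the points are peaks. The medians nearly coincide at heights of 30 to 39, at 490 and 492 bp, and stand at 1511 and 1155.5 bp at heights of 100 or more.

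The tallest peak of the band, at 66188571 to 66190005, reached a height of 320, which was 7.80 times the band's median, and its significance value was listed at minus infinity. It was 1434 bp wide with its highest point at 66189279, near the middle of the peak. Beside it stood the fifth tallest peak, of height 143, at 66185631 to 66186848, with 1.72 kb between them, and the fourth, of height 150, lay 15.8 kb away on the other side at 66205782 to 66206825. From 100 kb before the tallest peak to 100 kb after it, 17 peaks were listed. The other 14 reached 91 at most, so 3 of the 5 tallest peaks of the band stood within 21.2 kb among lower ones. The third tallest, of height 153, also lay in window 7, at 66056116 to 66057727, and together these peaks account for the 4 peaks of height 100 or more in that window.

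The second tallest peak of the band, at 65685970 to 65687481, had a height of 170 and was 17.6 kb from its nearest neighbour. Outside the band the tallest peaks of chromosome 11 had heights of 195, 163 and 162. The tenth, of height 129 at 65769130 to 65770627, was the most isolated of the 10 tallest, with 39.5 kb to its neighbour. Of the remaining 4, peaks of height 138 at 67415391 to 67418549 and 132 at 64899239 to 64903127 belonged to clusters of 6 and 8 peaks, another of height 132 at 64863160 to 64864290 to a cluster of 2, and one of height 136 at 64036597 to 64039409 was alone.

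Of the 5 widest peaks of the band 2 were also among its 10 tallest. The widest, at 67201221 to 67206812, spanned 5591 bp, and the widest peak of chromosome 11 outside the band 3858 bp. It was 107 high and sat in the cluster with the most peaks. A peak of 3888 bp at 64899239 to 64903127 and one of 3158 bp at 67415391 to 67418549 were those among the 10 tallest. A peak of 3807 bp at 64510130 to 64513937 was 111 high, and one of 2933 bp at 65188569 to 65191502 was 87 high. This last peak lay 1.32 kb from another wide peak, of 2418 bp and the same height, at 65184827 to 65187245. In all, 12 band peaks were over 2000 bp, 4 of them in window 4 and 3 in window 5.

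Joined across distances of up to 12500 bp, most band peaks fell into clusters. Clusters held 270 of 318 band peaks (84.9%; 80.5 to 88.7%) and 603 of 979 others (61.6%; 58.5 to 64.7%). The band had 62 clusters with a mean of 4.35 peaks and the rest of the chromosome 194 with a mean of 3.11. Of the 8 clusters of 10 or more peaks on chromosome 11, 5 lay in the band with 81 of its peaks (25.5%), and 3 elsewhere with 41 peaks (4.19%). The number of such clusters depended on the distance, with 1 in the band at 5 kb and 9 at 25 kb. How many peaks are clustered follows in part from the density for which the band was chosen.

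The 10 clusters with the most peaks held 123 peaks, 38.7% of the band's, in 383 kb or 6.38% of its length. The first, at 67158716 to 67237267, had 22 peaks with heights of 20 to 107. It contained 6 peaks of height 79 or more, the last of them at its telomeric end, and 10 peaks no higher than 30. The second, at 64611852 to 64661872, had 21 peaks in 50.02 kb and was more closely filled with lower peaks, at 4.20 peaks per 10 kb against 2.80 in the first, and median heights of 31 against 42. The fourth and the seventh, at 67030098 to 67057207 with 11 peaks and at 67118690 to 67141376 with 9, stood with the first in window 9. These 3 clusters contained 42 of the 68 peaks of that window.

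The third and the fifth cluster were close neighbours in window 5. They lay at 65170928 to 65224948 with 17 peaks and at 65239075 to 65275688 with 10, and 14.1 kb separated them. The third contained both wide peaks of height 87 named above, and the tallest peak of the fifth reached 96. The tenth, at 65337221 to 65356524, had 8 peaks in 19.3 kb. The sixth, at 63992890 to 64019424, crossed from window 2 into window 3 and had 9 peaks with a median width of 939 bp that covered 30.2% of its span. The eighth, at 65624249 to 65668331, was the most loosely spaced of the 10, with 1.81 peaks per 10 kb, and had the highest median height among them, at 58. The ninth, at 64879085 to 64903127, had 8 peaks that covered 37.6% of its span, the largest share of the 10, and ended in the 3888 bp peak of height 132. The seventh consisted mostly of short peaks, with a median width of 152 bp, around 1 peak of height 126.

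**Figure D5:**
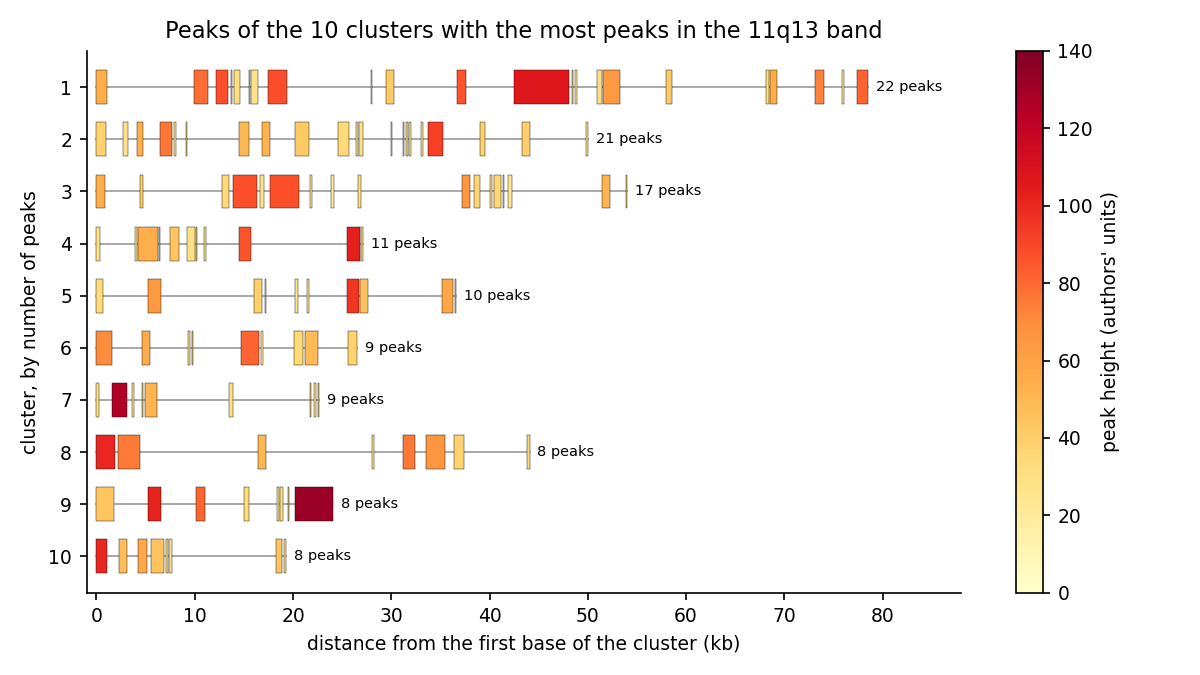
The 10 clusters with the most peaks in the band, one per line, with each peak drawn as a box from its start to its end in kb from the first base of the cluster and coloured by height in the authors' units. The first cluster spreads 22 peaks over 78.6 kb, and the ninth ends in a single wide peak of height 132.

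Lone peaks of the band were few. Median heights of lone and clustered peaks were 47 (33 to 57) and 41 (35 to 45) in the band, with overlapping intervals, and 50 (47 to 54) and 35 (33 to 37) elsewhere, where the intervals did not overlap. Only 48 band peaks were lone, which leaves a wide interval, and whether the gap between lone and clustered peaks differs between the band and the rest was not tested.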

How the data were processed

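The authors deposited 1 peak list for the KMT2D library, with 11 columns and no header. The submitters' processing notes name CASAVA 1.8.2 and the build hg19. How reads were aligned, peaks called and the input used is not given in the sources used here. Column meanings were read from the values: width equalled end minus start in 24824 of 24824 peaks. The deposited signal column is read as peak height and one deposited score column as the score; their scales are not stated. A second deposited score column, at or below -15 throughout, is called the significance value and resembles a log10 p-value. The deposited percent column gives the place of the highest point in the peak. These values are the authors' own and describe peaks within this list. Whether positions count from 0 or 1 is not stated.

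Peaks were placed by their highest point. Intervals at 95% were exact binomial for shares, exact Poisson for densities, exact conditional for ratios and order-statistic for medians. Named were the 12 windows, the 10 tallest and 5 widest peaks, the 5 longest gaps and the 10 clusters with the most peaks. Gene names and order came from a RefSeq table on GRCh38.p14, with the ends of the run taken from general knowledge. Distances of peaks to genes and motifs in peaks were not analysed here, since no hg19 annotation or sequence was used. The members and lists were chosen with earlier results of these data known. Functions were tested on simulated data. Software was Python 3.11.15 with scipy 1.17.1, numpy 2.4.6, matplotlib 3.10.9 and pandas 2.3.3.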

Additional observations from a re-analysis of the deposited data

How the results depend on the processing

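Moved here means outside the 95% interval of the value reported, or, for counts, beyond 1.5 times. Differences of medians were set against wider bounds, given below. By these rules 19 of 44 alternative values moved, and the other 25 stayed. The ratio of peak density in the band to that on the rest of chromosome 11 was 6.82 and 7.44 among the highest-scoring 50% and 25% of peaks, and it moved to 8.04 for the band narrowed by 0.5 Mb at each end, to 8.32 in covered bases and to 4.33 without empty windows. The highest-scoring 50% and 25% kept 157 and 84 band peaks, and a minimum height of 37, set by a window with 3 peaks, kept 179; fewer peaks follow from these settings. The median width of band peaks was 1167 bp among the highest-scoring 50%, 975 bp with peaks less than 500 bp apart joined and 1072 bp at the minimum height. The differences in median height and width between the band and the rest stayed in their bounds under each alternative run. These bounds were -5 to 7 for height and -71 to 240 bp for width. They were formed from the ends of both medians' 95% intervals and are wider than a 95% interval of a difference. The difference in height ranged from 0 (peaks over 200 bp, chosen after seeing the data) to 5, and that in width from 84.5 to 232 bp. The clustered share of band peaks was 70.8% and 93.7% with joining at 5 and 25 kb, 68.8% among the highest-scoring 50% and 75.5% after that joining, against 47.9%, 72.3%, 33.5% and 49.5% on the rest of the chromosome. Clusters of 10 or more peaks in the band numbered 1, 9, 1 and 3 under these settings. The fullest window held 31 peaks among the highest-scoring 50%, and the emptiest held 0 with windows of 0.25 Mb. The alternatives for peaks at transcription starts were not run. No paired analysis was possible because there was 1 ChIP library. The depth of the library is unknown. Copy number of the region in this line was not analysed here, and its part in the number of peaks was not tested.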
